A study of Mus musculus with 2 samples.

Results

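The genes described here are 35 members of the Hippo signalling pathway and targets of its effectors, out of 23284 genes counted in RNA from mouse primary hepatocytes, the main parenchymal cell of the liver, taken from mice and cultured. They were picked by symbol from a list drawn up with the ratios between these libraries already known, so every ratio below is a description of the libraries and no test supports it. By role, 4 members belong to the FAT/Dachsous arm of atypical cadherins, 10 are adaptors and regulators, 6 are core kinases or their scaffold, 7 are effectors and 8 are targets. Hepatocytes of C57BL/6 mice received lentivirus expressing an shRNA against JMJD3, a histone H3 lysine 27 demethylase encoded by Kdm6b, or control lentivirus. Each of these groups was 1 library from cells pooled from 5 mice, infected 24 h after plating and left with virus for 48 h. For the last 6 h both cultures were held at 5 mM glucose with 10 µM forskolin, which raises cyclic AMP, as a stand-in for fasting. The forskolin and the viral infection are thus shared by both groups, and uninfected cells or cells without forskolin were not analysed here. The labels name no second hairpin.

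The Hippo pathway is a kinase cascade that limits organ size, and the liver is the organ in which its loss is best known to cause overgrowth. MST kinases, held by the scaffold SAV1, activate LATS kinases, and LATS kinases phosphorylate the coactivators YAP and TAZ, which are then kept in the cytoplasm or degraded. Unphosphorylated YAP and TAZ enter the nucleus and bind TEAD transcription factors at their target genes, some of which encode pathway members that restrain YAP and TAZ. Activity is therefore set largely on protein phosphorylation and location, which messenger RNA levels do not report.

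Total counts were 18334366 in the JMJD3 shRNA library and 11099562 in the control library, a 1.65-fold difference in depth. Levels are given as CPM, counts relative to library size, scaled by TMM, a method that corrects library totals for differences in composition. Each group had 1 library and so no replicate spread, and a rule of size was used in place of a test. A gene is called higher or lower when the libraries differed at least 1.5-fold and the exact binomial 95% interval of the ratio excluded 1, among 12607 genes whose mean level was at least 1 CPM. Intervals cover counting error only and not the difference between cultures. Kdm6b, the targeted gene, was at 33.0 CPM in the JMJD3 shRNA library and 90.7 CPM in the control one (log2 -1.46, interval -1.60 to -1.31).

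Most of the 35 chosen genes had more transcript in the JMJD3 shRNA library. Of the 35 members, 22 were called higher and 0 lower, where 15.3% of all measured genes were called higher and 12.8% lower by the same rule. The ratios of 31 members lay above 1 and those of 4, Stk3, Wwc1, Dchs1 and Nt5e, below it. The median log2 ratio was 0.96 over the members and 0.00 over all measured genes. All 35 members met the minimum of 1 CPM, although Fat4, at 0.979 CPM in control, met it through the JMJD3 shRNA library, and Dchs1, at 0.773 CPM in the JMJD3 shRNA library and 1.42 CPM in control, met it through control. Together the members took 0.512% of counts in the JMJD3 shRNA library and 0.286% in control. Since the list was built with these ratios in view, its share above the background is not evidence about the pathway.

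**Figure D1:**
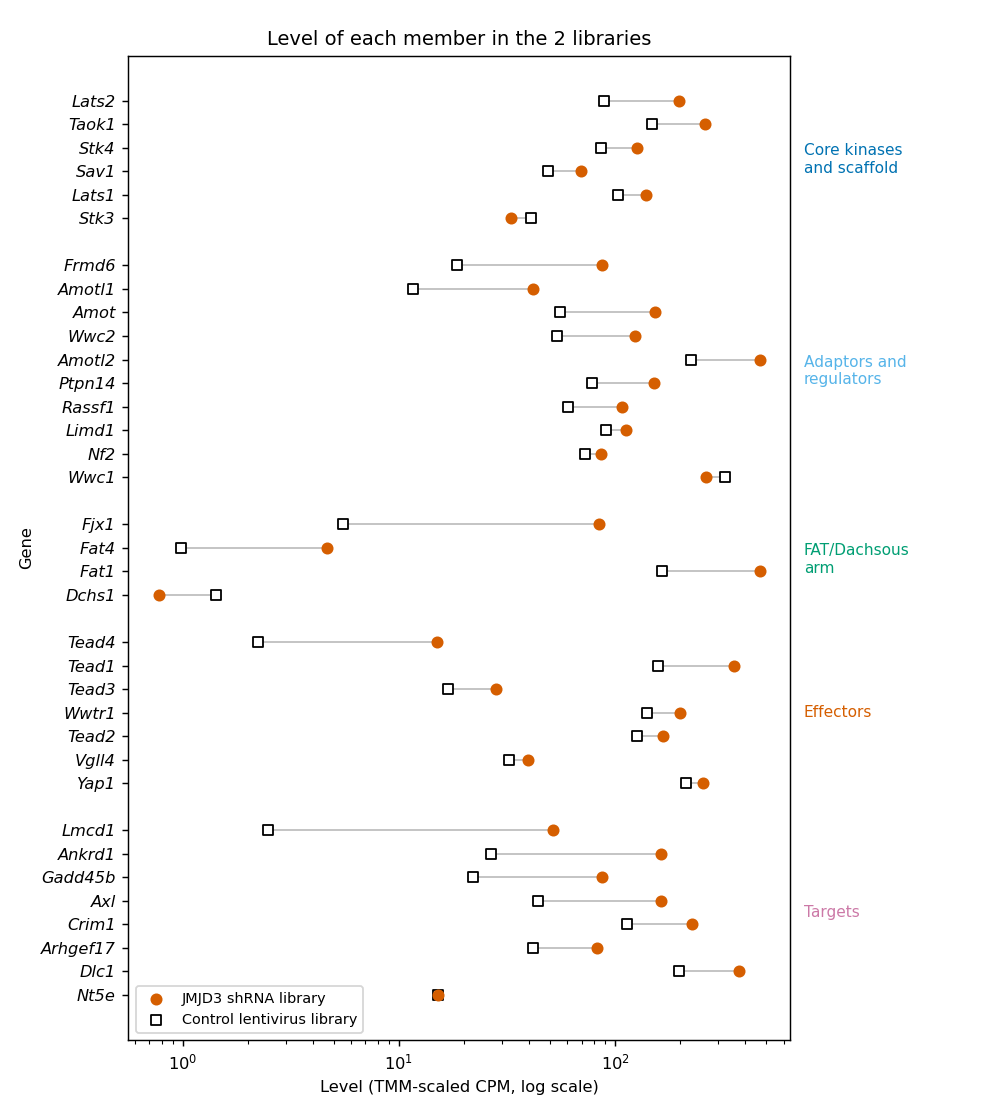
Level of each of the 35 members in TMM-scaled CPM on a log axis, with the JMJD3 shRNA library as filled circles and the control library as open squares (1 library each), grouped by role. The JMJD3 shRNA symbol lies to the right for 31 members, and the Nt5e symbols coincide at about 15.2 CPM.

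In the FAT/Dachsous arm, which signals contact between neighbouring cells, 3 of 4 members were called higher (all measured genes: 15.3%). Fat1, a giant atypical cadherin, had 465 CPM in the JMJD3 shRNA library and 164 CPM in control, which is 2.84-fold higher (interval 2.70 to 2.99). Fjx1, which encodes the mouse homologue of the fly Golgi kinase four-jointed, had 84.5 CPM in the JMJD3 shRNA library and 5.52 CPM in control, from 1530 and 62 counts. Its log2 ratio of 3.94 (3.57 to 4.33) was the 10th highest of the 12607 measured genes. Fjx1 has a single exon, at chromosome 2, 102289523 to 102291949 (mm9, minus strand). The large Fat and Dachsous members other than Fat1 had few counts. Fat4 had 84 counts in the JMJD3 shRNA library and 11 in control, a log2 ratio of 2.24 (1.33 to 3.30). Dchs1, a ligand for FAT4, had 14 counts in the JMJD3 shRNA library and 16 in control, and its log2 ratio of -0.88 (-2.03 to 0.25) had an interval that included no difference. Nearly all FAT transcript in the libraries was therefore Fat1, at 99.1% of the Fat1 and Fat4 sum per exon length in the JMJD3 shRNA library and 99.5% in control. 

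Among adaptors and regulators 7 of 10 were called higher (all measured genes: 15.3%), with a median log2 ratio of 1.01. The angiomotins, junctional proteins that bind YAP and TAZ and hold them outside the nucleus, were higher as a family. Amotl2, the most abundant of them, had 468 CPM in the JMJD3 shRNA library and 224 CPM in control (log2 1.06, interval 0.999 to 1.13). Amot had 152 CPM in the JMJD3 shRNA library and 55.5 CPM in control (log2 1.46, interval 1.33 to 1.58). Amotl1 was the least abundant, with 41.9 CPM in the JMJD3 shRNA library and 11.6 CPM in control (log2 1.86, interval 1.59 to 2.14). Their summed level, as CPM per kilobase of exon (RPKM), was 140 in the JMJD3 shRNA library and 63.5 in control, and Amotl2 made up 79.6% of it (79.0 to 80.2) in the JMJD3 shRNA library and 84.2% (83.1 to 85.3) in control.

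The FERM-domain gene Frmd6, related to fly expanded, had the largest ratio of the adaptors. It was at 86.9 CPM in the JMJD3 shRNA library and 18.6 CPM in control, from 1574 and 209 counts (log2 2.22, interval 2.02 to 2.44). Nf2, which encodes the tumour suppressor merlin and is also a FERM-domain gene, was at 86.3 CPM in the JMJD3 shRNA library and 72.3 CPM in control and did not reach 1.5-fold (log2 0.26, interval 0.13 to 0.38). The paralogs Wwc1, which encodes KIBRA, and Wwc2 lay on opposite sides of 1. Wwc1 had 262 CPM in the JMJD3 shRNA library and 323 CPM in control and did not pass (log2 -0.30, interval -0.36 to -0.24). Wwc2 had 124 CPM in the JMJD3 shRNA library and 53.9 CPM in control, and was called higher at 1.20 (1.07 to 1.33). Their sum was 104 RPKM in the JMJD3 shRNA library and 108 RPKM in control, while the share of Wwc2 in it was 23.7% (22.8 to 24.7) in the JMJD3 shRNA library and 9.92% (9.17 to 10.7) in control. Ptpn14, a phosphatase that binds YAP, had 151 CPM in the JMJD3 shRNA library and 77.9 CPM in control (log2 0.96, interval 0.85 to 1.07). Rassf1, a binding partner of MST kinases, was at 0.84 (0.71 to 0.97). Limd1, a LIM protein that binds LATS, was at 0.30 (0.19 to 0.41) and did not pass. Over all measured genes ratios were larger for genes with longer exons, with a Spearman correlation of 0.33 across genes, and once that trend was removed Ptpn14, with 10744 bp of exon, no longer reached 1.5-fold (log2 0.50).

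In the core cassette 2 of 6 members, Lats2 and Taok1, were called higher (all measured genes: 15.3%). Lats2, a kinase for YAP and TAZ that is itself a known target of them, had 197 CPM in the JMJD3 shRNA library and 88.7 CPM in control (log2 1.15, interval 1.05 to 1.25). Its paralog Lats1 had 139 CPM in the JMJD3 shRNA library and 103 CPM in control, which is below the 1.5-fold limit (log2 0.43, interval 0.33 to 0.53). Lats2 thus made up 64.7% (63.6 to 65.9) of the LATS sum per exon length in the JMJD3 shRNA library and 52.8% (50.6 to 54.9) in control. The intervals of such shares cover counting error only and not the difference between cultures. The MST kinases, the mammalian counterparts of fly hippo, lay on opposite sides of 1. Stk4, encoding MST1, had 126 CPM in the JMJD3 shRNA library and 86.3 CPM in control (log2 0.55, interval 0.44 to 0.66), and Stk3, encoding MST2, had 33.0 CPM in the JMJD3 shRNA library and 40.7 CPM in control (log2 -0.30, interval -0.48 to -0.12). Neither reached 1.5-fold. The share of Stk4 per exon length was 68.2% (66.2 to 70.1) in the JMJD3 shRNA library and 54.4% (51.6 to 57.15) in control, on a sum of 35.7 RPKM in the JMJD3 shRNA library and 30.6 RPKM in control. The scaffold Sav1 was at 0.51 (0.36 to 0.65) and did not pass. Taok1, a kinase that can activate MST, had 259 CPM in the JMJD3 shRNA library and 148 CPM in control (log2 0.81, interval 0.73 to 0.89), and with the length trend removed its log2 ratio of 0.31 no longer passed. That left 1 of the 6 core members, Lats2, called higher, where 13.6% of all measured genes were.

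**Figure D2:**
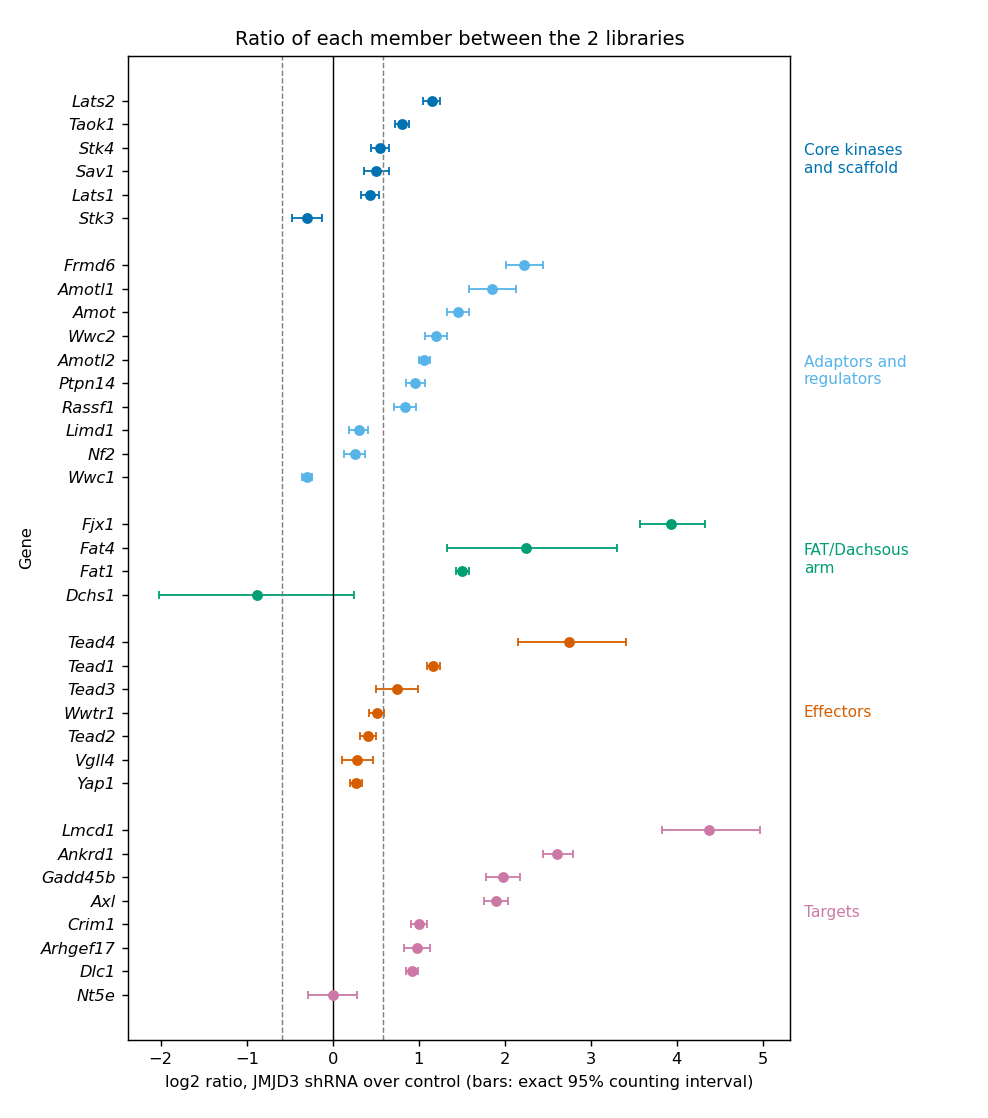
Log2 ratio of the JMJD3 shRNA library over the control library for each member (points), with exact binomial 95% intervals of the counts (bars) and dashed lines at 1.5-fold either way. The targets Lmcd1 at 4.37 and Ankrd1 at 2.61, with Fjx1 at 3.94 and Tead4 at 2.75, stand farthest to the right, while Yap1 at 0.27 and Vgll4 at 0.29 lie inside the dashed lines.

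The effectors had ratios above 1 in all 7 cases, and 3, each a TEAD gene, were called higher (all measured genes: 15.3%). The coactivators did not reach 1.5-fold. Yap1 had 256 CPM in the JMJD3 shRNA library and 212 CPM in control (log2 0.27, interval 0.20 to 0.34), and Wwtr1, encoding TAZ, had 199 CPM in the JMJD3 shRNA library and 140 CPM in control (log2 0.51, interval 0.42 to 0.60). Per exon length Yap1 was the more abundant of them in both libraries, at 59.6% of their sum (58.5 to 60.6) in the JMJD3 shRNA library and 63.5% (62.0 to 65.0) in control. Vgll4, a TEAD partner that competes with YAP, was at 0.29 (0.10 to 0.47).

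The TEAD family, which supplies the DNA-binding partner, summed to 129 RPKM in the JMJD3 shRNA library and 81.6 RPKM in control. Tead1 had 353 CPM in the JMJD3 shRNA library and 157 CPM in control (log2 1.17, interval 1.09 to 1.24). Tead2 had 167 CPM in the JMJD3 shRNA library and 126 CPM in control and did not pass (log2 0.40, interval 0.31 to 0.50). It was the most abundant TEAD per exon length in both, at 61.3% (60.3 to 62.3) of the family in the JMJD3 shRNA library and 72.9% (71.5 to 74.2) in control, with Tead1 at 27.6% (26.8 to 28.4) in the JMJD3 shRNA library and 19.4% (18.3 to 20.4) in control. With the length trend removed the log2 ratios of Tead1 and Tead2 lay closer together, at 0.74 and 0.50, and only Tead1 of these passed. Tead3 was called higher at 0.74 (0.50 to 0.99). Tead4, the family member known from trophoblast development, had the largest ratio of the effectors, with 271 counts and 15.0 CPM in the JMJD3 shRNA library and 25 counts and 2.22 CPM in control (log2 2.75, interval 2.16 to 3.40). It was the rarest TEAD in both, at 3.79% (3.36 to 4.25) of the family per exon length in the JMJD3 shRNA library and 0.886% (0.574 to 1.30) in control. Without the correction for length the order of Tead1 and Tead2 turned round, since Tead1 has 9962 bp of exon and Tead2 2115 bp: Tead1 then took 62.7% of TEAD counts in the JMJD3 shRNA library and 52.1% in control.

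**Figure D3:**
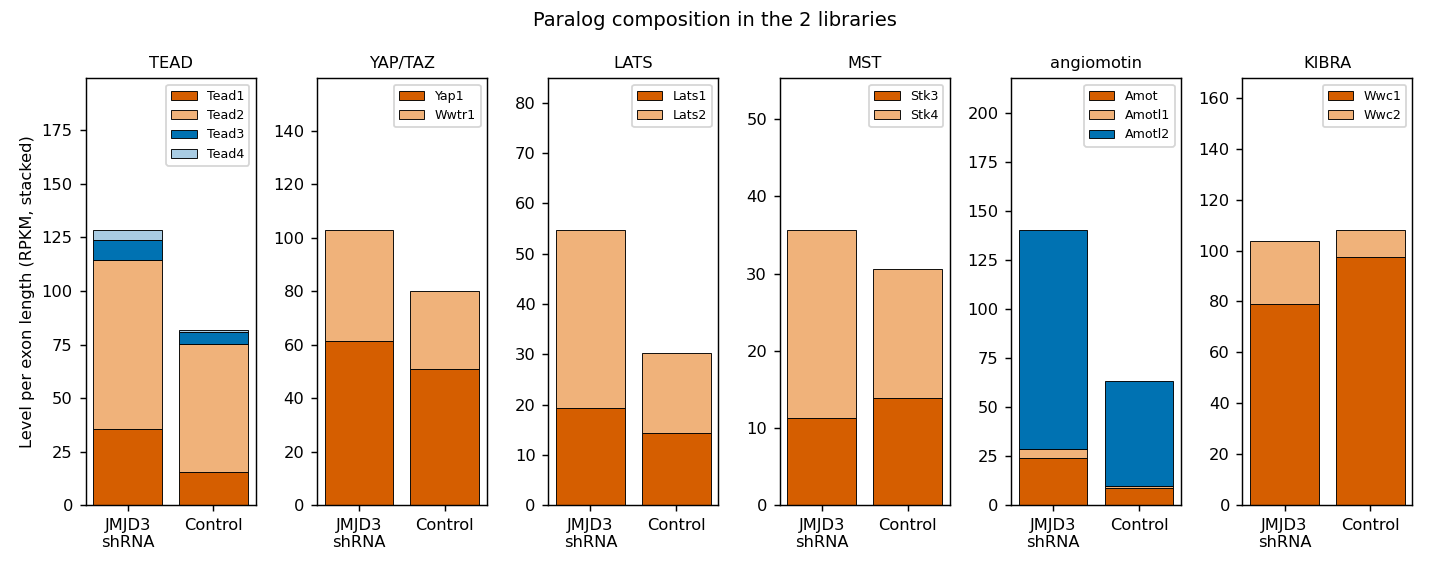
Stacked level per exon length (RPKM, from 0) of the paralogs of 6 families, with the JMJD3 shRNA library left and the control library right in each panel, 1 library each and no error bars. The TEAD sum is 129 RPKM in the JMJD3 shRNA library and 81.6 RPKM in control with Tead2 as the largest part of both, and the KIBRA sum is 104 RPKM in the JMJD3 shRNA library and 108 RPKM in control with a larger Wwc2 part in the JMJD3 shRNA library.

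Of the 8 targets 7 were called higher (all measured genes: 15.3%), with a median log2 ratio of 1.45. Lmcd1, a LIM-domain transcription cofactor, had 935 counts in the JMJD3 shRNA library and 28 in control, which are 51.6 CPM and 2.49 CPM. Its log2 ratio of 4.37 (3.83 to 4.97) was the 6th highest of the 12607 measured genes. Its 6 exons span 112223752 to 112280417 of chromosome 6 (mm9, plus strand). Ankrd1, a nuclear ankyrin-repeat protein and a widely used reporter of YAP activity, had 163 CPM in the JMJD3 shRNA library and 26.7 CPM in control (log2 2.61, interval 2.44 to 2.79). It spans 36186455 to 36194334 of chromosome 19 (mm9, minus strand).

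The growth arrest gene Gadd45b, which is also induced by stress and NF-kappaB, had 86.6 CPM in the JMJD3 shRNA library and 21.98 CPM in control (log2 1.98, interval 1.78 to 2.18). Axl, a receptor tyrosine kinase, had 163 CPM in the JMJD3 shRNA library and 43.9 CPM in control (log2 1.89, interval 1.75 to 2.03). The counting intervals of Axl and Gadd45b overlap, and that of Ankrd1 lies above both. Arhgef17, an exchange factor, and Dlc1, a GTPase-activating protein, were at 0.98 (0.83 to 1.13) and 0.92 (0.85 to 0.99), with 82.2 CPM for Arhgef17 in the JMJD3 shRNA library and 41.7 CPM in control. Dlc1 had 374 CPM in the JMJD3 shRNA library and 197 CPM in control. With the length trend removed the log2 ratios of Arhgef17 and Dlc1 were 0.54 and 0.56, just under the limit of 0.58. Exons of Dlc1 share 17.9% of their length with the transcript A730069N07Rik, and since strand was not used its count is uncertain. No other member shares exonic sequence with another gene of the files.

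Crim1, a transmembrane protein that binds bone morphogenetic proteins, had 225 CPM in the JMJD3 shRNA library and 113 CPM in control (log2 0.999, interval 0.91 to 1.09). Nt5e, which encodes the ecto-nucleotidase CD73, was the exception among the targets. It had 15.2 CPM in both, from 275 counts in the JMJD3 shRNA library and 171 in control, and the interval of its log2 ratio ran from -0.28 to 0.28. At a limit of 2-fold, 4 of the 8 targets, Lmcd1, Ankrd1, Gadd45b and Axl, were still called, and 15 of all 35 members, where 7.35% of all measured genes were called higher and 6.19% lower by that rule. With the length trend removed, 18 members were called higher and 1, Dchs1, lower, where 13.6% of all measured genes were called higher and 11.6% lower.

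TEAD proteins are known to bind the core GGAATG, so promoters were searched for it on both strands. The promoters are RefSeq windows in GRCm38.p6, from 250 bases before to 50 after the annotated start, and they were matched by symbol for 27 of the 35 members. Fjx1, Tead1, Tead4, Dlc1 and Arhgef17, all called higher, had no window and were not searched. Stk3, Limd1 and Dchs1, which did not pass, had none either. Windows with matches are printed for 4 members called higher, because they show where the core lies in a classic target (Ankrd1), in a receptor target (Axl) and in adaptors of the pathway (Amotl2, Wwc2), together with Lmcd1, whose window holds none although its ratio was the largest of the members. Capitals mark GGAATG, or CATTCC where the core is on the other strand, and each line reads 5′ to 3′ on the strand of the gene. The windows are chr19:36119795-36120094 (minus strand) for Ankrd1, chr7:25788684-25788983 (minus) for Axl, chr9:102717554-102717853 (plus) for Amotl2, chr8:47990495-47990794 (minus) for Wwc2 and chr6:112273508-112273807 (plus) for Lmcd1.
Ankrd1: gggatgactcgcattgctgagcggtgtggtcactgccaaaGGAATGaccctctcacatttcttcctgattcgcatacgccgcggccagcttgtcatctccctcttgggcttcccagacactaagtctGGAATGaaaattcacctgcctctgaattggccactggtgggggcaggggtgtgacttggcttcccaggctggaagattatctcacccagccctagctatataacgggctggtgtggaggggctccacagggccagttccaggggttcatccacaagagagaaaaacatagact
Axl: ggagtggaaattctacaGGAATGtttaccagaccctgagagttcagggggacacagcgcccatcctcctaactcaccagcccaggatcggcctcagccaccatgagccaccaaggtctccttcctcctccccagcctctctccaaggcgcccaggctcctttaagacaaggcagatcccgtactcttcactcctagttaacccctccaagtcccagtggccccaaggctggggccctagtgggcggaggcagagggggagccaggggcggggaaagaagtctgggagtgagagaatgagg
Amotl2: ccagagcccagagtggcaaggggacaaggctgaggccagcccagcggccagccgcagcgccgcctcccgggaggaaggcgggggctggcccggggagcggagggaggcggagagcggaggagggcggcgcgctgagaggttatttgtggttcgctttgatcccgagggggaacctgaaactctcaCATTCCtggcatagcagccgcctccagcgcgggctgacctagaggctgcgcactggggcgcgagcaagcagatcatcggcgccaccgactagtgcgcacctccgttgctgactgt
Wwc2: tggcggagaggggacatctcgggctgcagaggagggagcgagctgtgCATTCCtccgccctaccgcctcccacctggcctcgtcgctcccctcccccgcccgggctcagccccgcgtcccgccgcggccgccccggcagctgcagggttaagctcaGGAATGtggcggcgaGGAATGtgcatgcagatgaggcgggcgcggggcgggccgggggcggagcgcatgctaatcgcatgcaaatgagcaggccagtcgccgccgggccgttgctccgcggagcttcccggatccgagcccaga
Lmcd1: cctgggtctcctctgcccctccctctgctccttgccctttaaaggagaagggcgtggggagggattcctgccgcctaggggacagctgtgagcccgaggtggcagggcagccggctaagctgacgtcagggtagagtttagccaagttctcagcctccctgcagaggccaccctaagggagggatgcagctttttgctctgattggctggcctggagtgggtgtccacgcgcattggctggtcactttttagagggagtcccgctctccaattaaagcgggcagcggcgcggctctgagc

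The Ankrd1 window holds 2 copies, whose first bases lie 210 and 123 bases upstream of the start. The Wwc2 window holds 3, at 203 bases upstream on the other strand and at 94 and 79 bases upstream on the strand of the gene. The single copies lie 233 bases upstream for Axl and 65 bases upstream, on the other strand, for Amotl2. Over the members, 13 of 27 genes (48.1%) had the core in at least 1 window. It occurred in 16.6% of the 27025 genes with a promoter and in 14.8% of the 9074 of these that were measured here. Among members it was found in 9 of 17 called higher and in 4 of 10 that were not. Over all measured genes it was found in 16.6% of those called higher, 17.0% of those called lower and 14.1% of the rest. By role the core was present in 4 of 5 effectors, namely Yap1, Wwtr1, Tead3 and Vgll4. It was present in 3 of 6 targets, in 3 of 9 adaptors and in 1 of 2 of the FAT/Dachsous arm. Among the core kinases with their scaffold it was present in 2 of 5, the kinase gene Lats2 and the scaffold gene Sav1. With the longer core GGAATGT it was found in 5 of 27 members (18.5%) and in 4.47% of all genes with a promoter. Neither series of matches says whether a TEAD protein binds there, and a window without a match can lie near sites farther away.

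The same question was put to a list of 22 YAP and TAZ targets known from human cancer cells, of which 9 are among the members. This list was also chosen with earlier results of these data known, so its share called higher is not evidence about the pathway. By the same rule 15.3% of all measured genes were called higher and 12.8% lower. Of the 13 listed genes that are not members, 12 were measured, 9 were called higher and 0 lower, with a median log2 ratio of 1.57. The most abundant of them, Ctgf and Cyr61, secreted matricellular proteins, had 1621 CPM and 606 CPM in the JMJD3 shRNA library and 32.9 CPM and 63.5 CPM in control. Ctgf had the highest ratio of the list, at 5.62 (5.47 to 5.77), and Cyr61 stood at 3.25 (3.15 to 3.37). Dock5, a Rac exchange factor, and Ccdc80 were lowest, both at 0.57, and did not pass. F3, tissue factor, at 166 CPM in the JMJD3 shRNA library and 12.99 CPM in control, and the kinase gene Nuak2, at 75.6 CPM in the JMJD3 shRNA library and 11.7 CPM in control, were named after their values were seen. Foxf2 had 14 counts in the JMJD3 shRNA library and 2 in control and was not measured.

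Of 52 further genes of the pathway that are not members, 46 were measured, 10 were called higher and 2 lower, with a median log2 ratio of 0.29. The share called higher was 21.7%, against 15.3% of all measured genes. The most abundant per exon length were Nedd4, a ubiquitin ligase, and Ywhae, a 14-3-3 protein, at log2 ratios of 0.30 (0.27 to 0.32) and 0.26 (0.22 to 0.30), neither of which passed. Vgll3, a vestigial-like TEAD cofactor, was highest, with 43.3 CPM in the JMJD3 shRNA library and 5.69 CPM in control (log2 2.93, interval 2.56 to 3.32), and the ubiquitin ligase gene Nedd4l was lowest, with 135 CPM in the JMJD3 shRNA library and 420 CPM in control (log2 -1.63, interval -1.70 to -1.56). Named after their values were seen, the LATS partners Mob1a and Mob1b were called higher at 0.78 (0.63 to 0.92) and 0.64 (0.49 to 0.78), and Wbp2, a coactivator that binds YAP, was called lower at -0.70 (-0.78 to -0.62). Vgll1 and Vgll2 had 0 counts in both libraries.

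**Figure D4:**
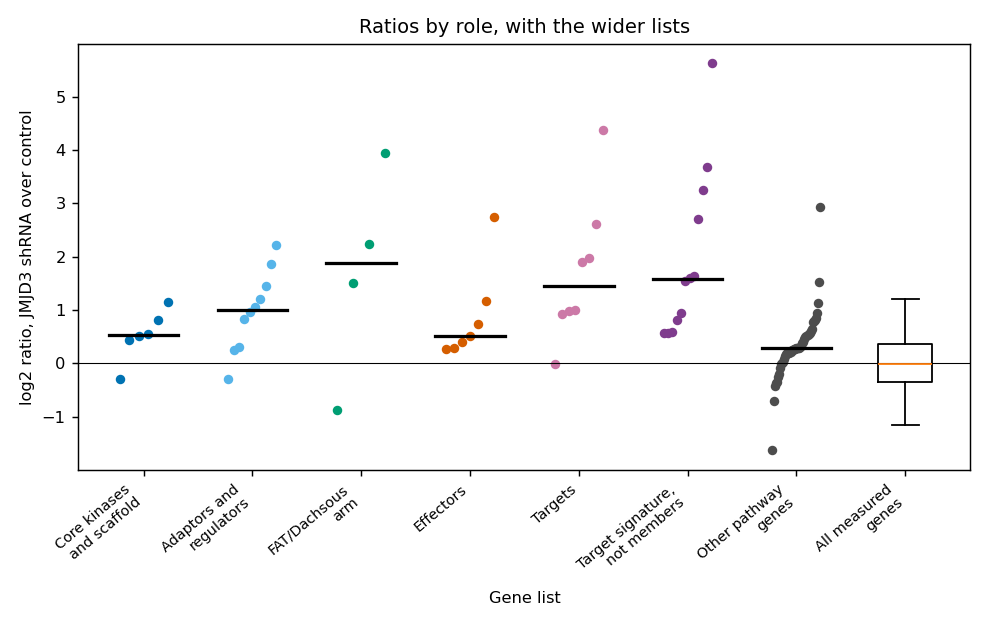
Log2 ratio of the JMJD3 shRNA library over the control library for each gene (points) by role or list, with the list's median as a black bar; the box shows the 25th, 50th and 75th percentiles of all 12607 measured genes and its whiskers the 5th and 95th. Among the 5 roles, medians run from 0.51 in the effectors to 1.87 in the FAT/Dachsous arm, which has 4 genes. They are 0.53 in the core kinases with their scaffold and 1.45 in the targets. The median is 1.57 in the targets from human cells that are not members and 0.29 in the other pathway genes, and the 95th percentile of all genes is 1.21.

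Set side by side, the roles had median log2 ratios of 1.87 in the FAT/Dachsous arm, 1.01 in the adaptors and 1.45 in the targets. The medians were 0.53 in the core kinases with their scaffold and 0.51 in the effectors. Whether these medians differ was not tested, since genes are not replicates and each group had 1 library. The median of the FAT/Dachsous arm includes Fat4, which met the minimum of 1 CPM through the JMJD3 shRNA library, and Dchs1, which met it through control. The roles also overlap, as Lats2, Amotl2, Ptpn14 and Fjx1 are members of the target list from human cells too. Those 4 genes were also moved to the targets, a choice made after the data were seen. Then 11 of 12 targets were called higher (all measured genes: 15.3%), with a median of 1.11. All 4 were already called higher, so that count was fixed by the move. Within the members the ratio was not ordered by level or by length. The Spearman correlation of the log2 ratio was -0.13 with mean CPM and 0.01 with exon length over the 35 genes. All values come from the same pair of libraries. The median exon length was 4853 bp over the members and 2248 bp over the 23284 genes counted. With the length trend of all measured genes removed, the median log2 ratio of the members was 0.73 rather than 0.96.

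**Figure D5:**
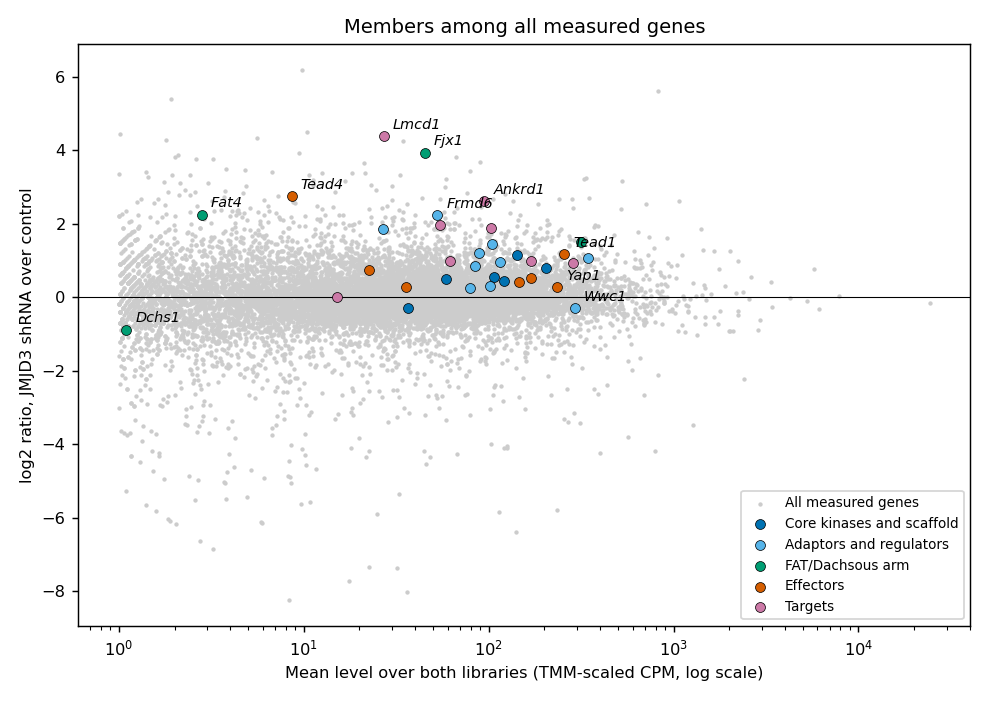
Log2 ratio of the JMJD3 shRNA library over the control library against the mean level in TMM-scaled CPM on a log axis, for the 12607 measured genes (grey) and the 35 members (coloured by role). Lmcd1 and Fjx1 lie at the upper edge of the cloud, and Wwc1 and Yap1 lie inside it.

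Both libraries held transcripts that mark hepatocytes and transcripts that mark other liver cells. For comparison with the marker lists, 15.3% of all measured genes were called higher and 12.8% lower by the same rule. Of 10 hepatocyte markers 8 were measured, 5 were called lower and 0 higher. The summed level of the list was 6275 CPM in the JMJD3 shRNA library and 10615 CPM in control. Much of the difference in that sum came from Fgb, at 846 CPM in the JMJD3 shRNA library and 3987 CPM in control. The ratios of all 8 measured markers lay below 1. Those called lower were the urea cycle gene Cps1, at 70 counts in the JMJD3 shRNA library and 2505 in control (log2 -5.85, interval -6.21 to -5.51), the fibrinogen gene Fgb at -2.24 (-2.26 to -2.21), Ttr at -0.97 (-1.06 to -0.87), Alb, encoding albumin, at -0.94 (-0.97 to -0.90) and Serpina1a at -0.62 (-0.79 to -0.46). Transferrin (Trf), the most abundant, had 4254 CPM in the JMJD3 shRNA library and 4282 CPM in control, while Cyp2e1 had 0 counts in both and Fabp1 had 2 counts in each. Stellate cell and fibroblast markers summed to 2373 CPM in the JMJD3 shRNA library and 1150 CPM in control, of which Vim, a gene that many cultured cells express, was 2059 CPM in the JMJD3 shRNA library and 846 CPM in control. In that list 2 of 10 measured genes, Vim and Tagln, were called higher and 3 lower. The 3 lower ones were Reln, Pdgfrb and Dcn, at log2 ratios of -3.74, -0.82 and -0.70. Reln had 17 counts in the JMJD3 shRNA library and 141 in control. The defining marker Lrat had 2 counts in the JMJD3 shRNA library and 1 in control, and Col1a1 was at 0.03 (-0.09 to 0.14). Cholangiocyte markers summed to 8434 CPM in the JMJD3 shRNA library and 8101 CPM in control, almost all from Spp1 at a log2 ratio of 0.04 (0.03 to 0.05). In that list 3 of 7 measured genes were called higher and 0 lower, namely the keratin genes Krt7, with 126 counts in the JMJD3 shRNA library and 25 in control (log2 1.65), and Krt19 at 0.60 (0.45 to 0.74) and the transcription factor gene Sox9 at 0.59 (0.50 to 0.68), and Cftr had 6 counts in the JMJD3 shRNA library and 5 in control. Markers called higher or lower were named after their values were seen. Endothelial markers summed to 57.0 CPM in the JMJD3 shRNA library and 59.9 CPM in control, with 1 of 8 measured called higher, 2 lower and Clec4g at 2 counts in each. Macrophage markers summed to 26.0 CPM in the JMJD3 shRNA library and 25.2 CPM in control, with 0 of 4 measured called and Clec4f at 0 in both. In RNA from a whole culture, a change in the number of cells of a type and a change in RNA per cell cannot be told apart. The part of these markers in the ratios of the members was not tested.

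The authors' deposited table of the comparison lists all 35 members, and its log2 fold changes differed from the ratios above by at most 0.00986. Of the members in the authors' deposited table, 23 had an adjusted p-value under 0.05 with a positive fold change and 0 with a negative one, where 14.6% of its 12838 genes did so upward and 11.8% downward. The 23 are the 22 members called higher here and Stk4. How those deposited p-values were obtained is not given in the labels or headers, and 1 library per group cannot supply a spread.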

How the data were processed

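Messenger RNA was sequenced as 100 bp paired ends, per the labels, from 1 library per group. The authors deposited raw counts of reads for each gene from featureCounts 1.4.6-p4, run on STAR alignments, with exons of UCSC mm9 gene models grouped by gene and strand not used, per the file headers. No option for read pairs was recorded, so both reads of a pair can count. The submitters' processing notes also name STAR 2.5.3a, edgeR, Trimmomatic 0.36, FastQC 0.11.5 and bcl2fastq 2.17.1.14. The authors' deposited table holds log2 fold changes, average log2 CPM, p-values and adjusted p-values, and its fold change had the sign of JMJD3 shRNA over control in 12824 of 12824 genes compared. The deposited exon length is another column of the count files, used for RPKM.

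From these counts, TMM factors were computed with edgeR 4.0.16 in R 4.3.3, and log2 ratios without a pseudocount, with exact conditional binomial (Clopper-Pearson) 95% intervals, using SciPy 1.17.1. A share within a family carries its exact binomial interval to the length scale. The ratio, its interval and the rule of size were tested on simulated counts with counting error only, scaled by library totals. Such counts meet the assumption of the interval, so they check the computation only. TMM factors and the intervals of shares were not part of that check. Depth limits genes with few counts, and both reads of a pair or PCR copies make the intervals too narrow. Alternatives were library-total, DESeq2 1.42.0 and upper-quartile scaling, other filters, a 2-fold limit, halved counts, removal of overlapping genes and of the trend with exon length (lowess, fraction 0.3). The members, lists and rules were chosen with earlier results of these data known. Every member is reported, and of the wider lists the highest, the lowest and the 2 most abundant per length that are not members. Protein sequences and an mm9 genome were not used here.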

Additional observations from a re-analysis of the deposited data

How the results depend on the processing

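The count of members called higher ranged from 15 to 22 over the alternatives. Over the same alternatives 7.35% to 15.6% of all measured genes were called higher. The filter of 5 CPM left 33 members, and removal of overlapping genes left 34. No member changed the sign of a called ratio. With library-total, median-of-ratios or upper-quartile scaling, and with halved counts, all 35 members kept their call. Halving was applied to the counts and to the library sizes alike. The ratios therefore barely moved by construction, and mainly the intervals could change. With the exon-length trend removed, 18 members were called higher and 1, Dchs1 on 14 counts in the JMJD3 shRNA library and 16 in control, lower, where 13.6% of all measured genes were called higher and 11.6% lower. Then 1 core kinase was called higher. The medians were 0.34 in core kinases with their scaffold, 1.30 in the FAT/Dachsous arm, 1.24 in targets and 0.73 over all members. With at least 5 CPM, which leaves out Fat4 and Dchs1, the median of the FAT/Dachsous arm was 2.72. Without Dlc1, which overlaps another gene, that of targets was 1.89. At 2-fold, 1 core kinase and 4 targets were called, and 7.35% of all measured genes were called higher. With Lats2, Amotl2, Ptpn14 and Fjx1 among the targets, chosen after the data were seen, 1 core kinase and 11 targets were called higher. That move only relabels genes already called higher, so these counts follow from it, and 15.3% of all measured genes were called higher. The median of targets was then 1.11. Counts not divided by length gave Tead1 62.7% of the family in the JMJD3 shRNA library and 52.1% in control, and Tead4 2.66% in the JMJD3 shRNA library. The longer promoter core was found in 5 members. The causes were not tested beyond what each alternative changes by its construction. No paired analysis was possible because each group had 1 library.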
